A study of Mus musculus with 12 samples.

Results

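The members described here are the genes for axon guidance ligands and receptors: every gene of the deposited table whose symbol names a semaphorin, plexin, neuropilin, netrin, netrin-G, DCC or UNC5 receptor, Slit, Robo, Eph receptor or ephrin. The rule used names only and no measured value, and it found 71 of 19878 genes, 37 for ligands and 34 for receptors. They comprise 20 semaphorins, 9 plexins, 2 neuropilins, 4 netrins, 2 netrin-Gs, 5 netrin receptors, 3 Slits, 4 Robos, 8 ephrins and 14 Eph receptors. RNA was taken from the arcuate nucleus, the part of the hypothalamus that holds the POMC neurons, of Pomc-CreER; ROSA26eGFP-L10a mice of the C57BL/6 strain. In these mice, tamoxifen given in the days before sampling lets Cre, made where Pomc is active, switch on a GFP-tagged ribosomal protein. Antibody to GFP bound to beads gave the pull-down, RNA on tagged ribosomes, and the lysate left over gave the supernatant, RNA of the whole tissue piece. The 12 libraries form 4 groups of 3 replicates: P60 pull-down, P60 supernatant, P12 pull-down and P12 supernatant, where P12 and P60 are postnatal days 12 and 60. By the study's methods, tamoxifen ended fewer days before sampling at P12 than at P60. Time since dosing therefore cannot be told apart from age in these libraries. Both fractions at both ages carry the same Cre and tag, so no library comes from mice without the tag, and the supernatant is not RNA of tag-free cells alone. Nothing read for this work says whether a library pools several mice. The p-values below therefore measure the spread between these samples.

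Axon guidance proteins steer growing axons and are later used at synapses and in vessels. Slits are secreted and bind Robo receptors, mostly to repel axons. Class 3 semaphorins are secreted and act through a neuropilin that binds them and a plexin that signals, while most other semaphorins sit in membranes and bind plexins directly. Netrins attract axons through DCC and repel them through UNC5 receptors. Ephrins and Eph receptors signal at cell contacts, with A ephrins held by a lipid anchor and B ephrins by a transmembrane stretch. In the arcuate nucleus of the mouse, POMC axons grow out to their targets in the first weeks after birth, so P12 lies near that period and P60 in the adult.

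The stretches just upstream of the start site are shown for 4 members that the age comparisons below turn on, 2 whose read counts were lower at P60 (Slit2, Epha5) and 2 whose counts were higher (Unc5b, Sema7a). They are RefSeq sequence of the GRCm38.p6 build, and capitals mark the GC box, GGGCGG or its reverse complement CCGCCC, the short motif that Sp-family factors bind in many promoters.
Slit2, chr5:47983035-47983137, plus strand: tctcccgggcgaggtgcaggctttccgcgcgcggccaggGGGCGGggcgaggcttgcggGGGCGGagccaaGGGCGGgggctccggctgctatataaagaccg
Epha5, chr5:84417383-84417502, minus strand: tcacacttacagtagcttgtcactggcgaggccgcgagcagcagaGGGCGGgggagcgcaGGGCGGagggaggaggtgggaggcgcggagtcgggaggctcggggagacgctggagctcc
Unc5b, chr10:60831582-60831701, minus strand: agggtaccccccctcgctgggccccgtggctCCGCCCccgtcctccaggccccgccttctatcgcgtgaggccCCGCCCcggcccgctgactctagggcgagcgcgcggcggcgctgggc
Sema7a, chr9:57939992-57940111, plus strand: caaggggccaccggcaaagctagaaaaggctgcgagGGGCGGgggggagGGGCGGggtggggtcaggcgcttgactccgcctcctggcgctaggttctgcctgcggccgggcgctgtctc
Slit2 held 3 GC boxes in this stretch and the other shown members held 2 each. RefSeq promoters were matched for 61 of the 71 members. At least 1 GC box lay in the 120 bases before the start site of 68.9% of those members, of 35.9% of 17492 protein-coding genes and of 26.9% of all 27025 genes with an entry. Members that fell with age and members that rose both carry the motif, which is a description of these letters and not of binding.

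Library totals were 10791980 to 18774445 reads in P60 pull-downs, 16143825 to 22422476 in P60 supernatants, 6305778 to 19814679 in P12 pull-downs and 23785154 to 35249290 in P12 supernatants. Values below are CPM, read counts scaled by the total of their library. Pomc itself, which marks the captured cells, was at 3077, 2529.7 and 4509.9 CPM in P60 pull-downs, against 26.1, 18.4 and 60.3 CPM in P60 supernatants. In P12 pull-downs it was at 9.83, 21.9 and 81.7 CPM, against 7.90, 7.71 and 9.36 CPM in P12 supernatants. A list of 6 POMC neuron markers summed to 4649 ± 1071 CPM in P60 pull-downs and 178 ± 34.4 in P60 supernatants, but to 148 ± 55.3 in P12 pull-downs and 144 ± 15.2 in P12 supernatants (SD, n = 3 each). At P60 4 of the 6 passed the test as higher in the pull-down, while at P12 only Pomc did (edgeR, log2 fold change 2.01 ± 0.53, SE; adjusted p = 0.0248). Reads of the GFP tag itself were higher in the pull-down at both ages, at 256, 152 and 184 CPM in P60 pull-downs, against 26.2, 27.1 and 18.2 CPM in P60 supernatants, and at 77.1, 39.4 and 55.8 CPM in P12 pull-downs, against 39.3, 28.4 and 28.9 CPM in P12 supernatants. The log2 fold changes of GFP were 3.26 ± 0.18 at P60 and 1.15 ± 0.28 at P12 (SE; adjusted p = 3.04e-17 at P60 and 0.0166 at P12). P12 pull-down is used below as the name of the fraction and not of a cell type.

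The members varied far more between replicate pull-downs than between replicate supernatants. The median coefficient of variation (SD over mean) of their CPM was 29.0% in P60 pull-downs, 9.91% in P60 supernatants, 44.8% in P12 pull-downs and 7.75% in P12 supernatants. Other genes with a mean level in the band from 2.03 to 80.0 CPM, where most members lie, gave 31.9% in P60 pull-downs, 9.50% in P60 supernatants, 49.5% in P12 pull-downs and 9.63% in P12 supernatants. In pull-downs, 8 members at P60 and 12 at P12 had no read in at least 1 library, against 2 in P60 supernatants and 0 in P12 supernatants. An extreme case is Robo4, the Robo of endothelial cells, with 0, 46 and 0 reads in the 3 P12 pull-downs.

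**Figure D1:**
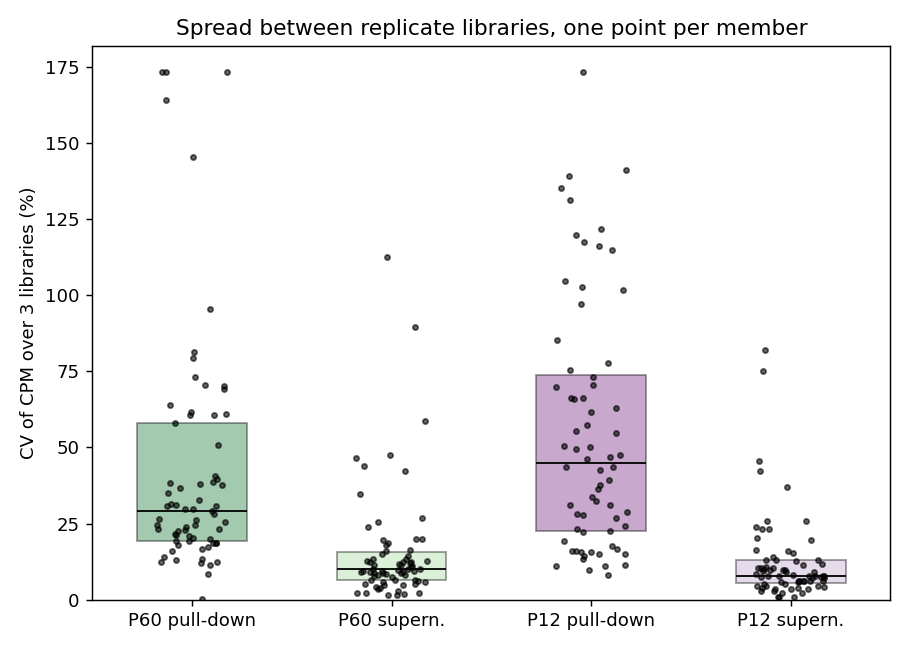
Coefficient of variation of CPM over the 3 libraries of each group (y axis, percent), with 1 point per member that had a read and a box for the median and quartiles. The medians are 29.0% and 44.8% in P60 and P12 pull-downs, and 9.91% and 7.75% in P60 and P12 supernatants.

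Summed over all 71 members, levels were 2164 ± 155 CPM in P60 pull-downs, 2359.9 ± 155 in P60 supernatants, 2495 ± 157 in P12 pull-downs and 2664 ± 55.3 in P12 supernatants (SD, n = 3 each). Per kilobase of exon, which allows levels of different genes to be compared, Efnb3 (a transmembrane ephrin), Sema6b (a transmembrane semaphorin) and Plxna1 (a plexin for class 3 and class 6 semaphorins) held the first 3 places in every group. Efnb3 stood at 22.7 CPM per kb in P60 pull-downs, 31.0 in P60 supernatants, 19.2 in P12 pull-downs and 29.6 in P12 supernatants. Sema6b stood at 17.9 CPM per kb in P60 pull-downs, 19.9 in P60 supernatants, 16.0 in P12 pull-downs and 17.2 in P12 supernatants. Plxna1 stood at 13.0 CPM per kb in P60 pull-downs, 15.2 in P60 supernatants, 21.4 in P12 pull-downs and 24.6 in P12 supernatants. In P60 supernatants the levels per library of these 3 genes did not overlap once divided by exonic length, whereas in P12 pull-downs those of Plxna1 and Efnb3 did. Slit1, a secreted repellent, was the fourth in both pull-downs, at 12.7 CPM per kb at P60 and 15.0 at P12. The median member lay at 2.75 CPM per kb in P60 pull-downs, 3.02 in P60 supernatants, 3.53 in P12 pull-downs and 3.28 in P12 supernatants. At the other end, Robo3, Robo4, Ntn5, Efna4 and Epha2 were among the lowest in supernatants of both ages.

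**Figure D2:**
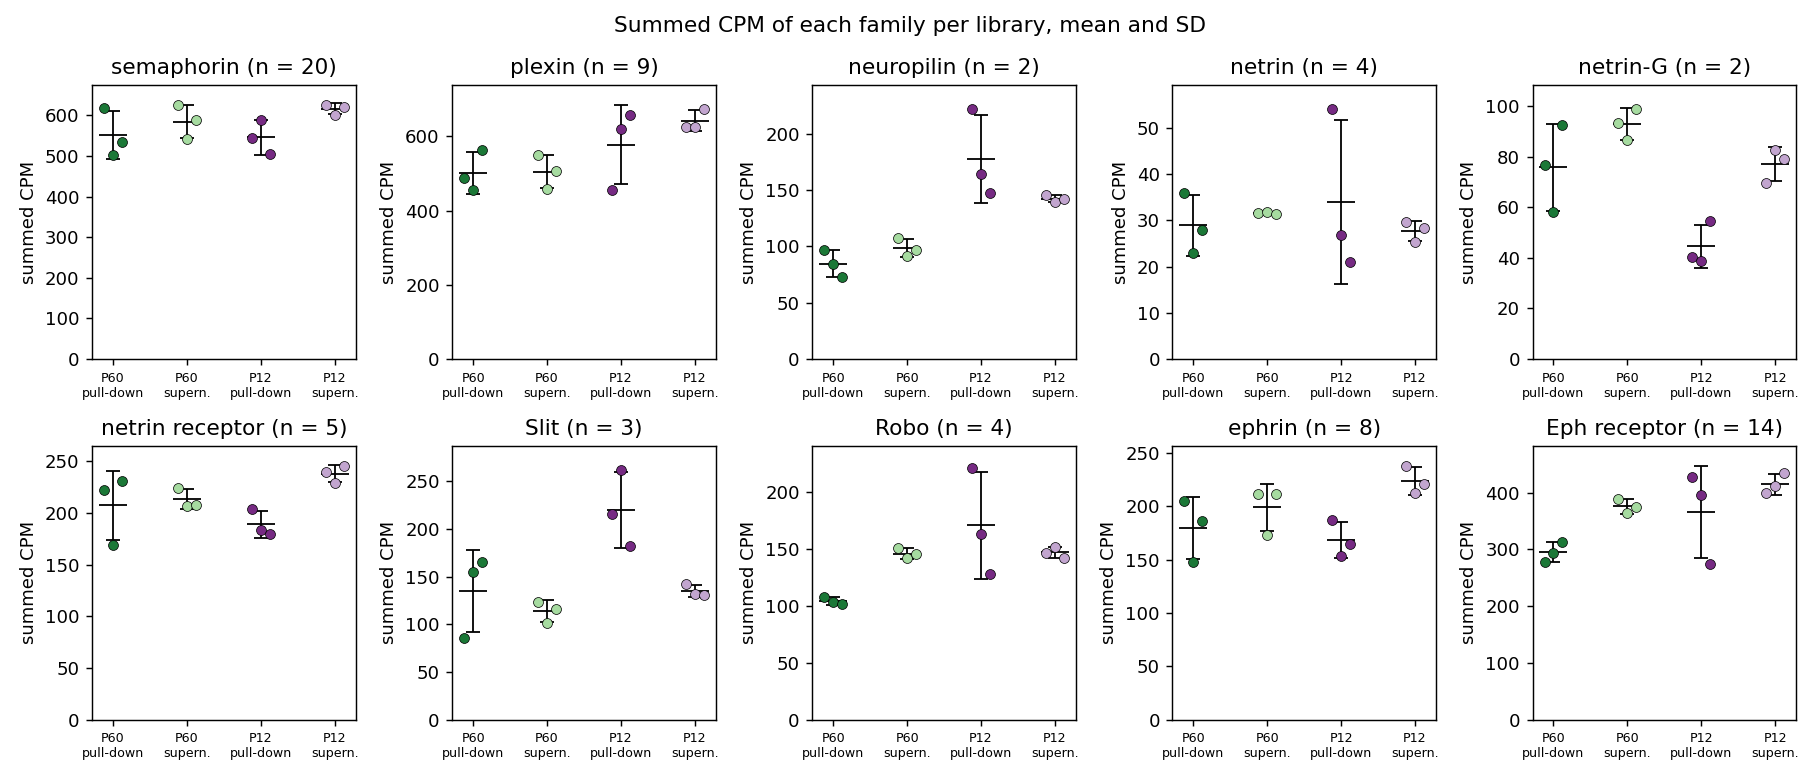
Summed CPM of the members of each family (y axis, from 0) in each of the 12 libraries, by group on the x axis, with the mean and SD of 3 libraries in black. The Slit sum averaged 220 CPM in P12 pull-downs and 135 CPM in P12 supernatants, and the neuropilin sum averaged 84.8 CPM in P60 pull-downs and 178 CPM in P12 pull-downs.

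The first comparison asks which guidance genes were over-represented in the pull-down at P12. Slit1, Slit2 and Robo2 were higher in the pull-down than in the supernatant, and no member was lower, of 66 members tested. That is 4.55% of the tested members, whereas 6.28% of all 14852 tested genes were higher and 1.95% lower, so the share of members was not above that of all genes. Log2 fold changes are from edgeR, with TMM scaling and same-numbered fractions taken as a pair, and p-values are adjusted over all tested genes by Benjamini-Hochberg, with 0.05 as the threshold.

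Slit2, a secreted repellent (chr5:47983138-48307733, GRCm38), had 125, 128 and 75.7 CPM in P12 pull-downs, against 65.7, 61.8 and 59.2 CPM in P12 supernatants. Its P12 pull-down values rest on 786, 2301 and 1499 reads, every pull-down lay above every supernatant, and the log2 fold change was 1.12 ± 0.21 (SE; adjusted p = 0.00206). Slit1 (chr19:41600257-41743665), also a secreted repellent, had 85.5, 105 and 77.0 CPM in P12 pull-downs, against 57.1, 53.0 and 55.4 CPM in P12 supernatants, again with no overlap. Its log2 fold change was 1.03 ± 0.22 (SE; adjusted p = 0.00590), and the call was lost without replicate pair 2. Slit3, the remaining Slit, had 5.07, 29.3 and 29.8 CPM in P12 pull-downs, against 19.6, 16.4 and 16.5 CPM in P12 supernatants, and the 5.07 CPM of the shallowest pull-down sits far below the rest, so that the groups overlapped (0.36 ± 0.60, SE; adjusted p = 0.797). Robo2 (chr16:73891839-74411825), a Slit receptor of neurons, had 96.4, 91.6 and 82.2 CPM in P12 pull-downs, against 71.7, 71.6 and 67.3 CPM in P12 supernatants, with all pull-downs above all supernatants. Its log2 fold change was 0.70 ± 0.20 (SE; adjusted p = 0.0404), and the call was lost when any replicate pair was left out. Robo1, the other main neuronal Slit receptor, had 125, 69.5 and 45.8 CPM in P12 pull-downs, against 74.3, 80.0 and 73.6 CPM in P12 supernatants, and the scatter of the pull-downs covers the supernatants.

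Pull-down RNA was scaled against supernatant RNA with TMM, and the scaling matters here. With TMM the median log2 fold change of all tested genes at P12 was -0.27, with library size alone it was -0.61, and the members' median with TMM was 0.14. With library size alone 1 member was higher (Slit2, 0.78 on the log2 scale) and 2 were lower, Sema4d at -1.05 and Unc5d at -0.78. The pull-downs also favoured long genes at P12: the rank correlation of exonic length with log2 fold change was 0.32 across 14679 genes, a description over genes that share libraries, and members are long, with a median of 7041 bases against 4474 for all tested genes. After a correction for length, Slit1 remained higher and Slit2 and Robo2 did not pass, with Slit2 at 0.61 on the log2 scale. The 5 tanycyte and ependymal markers summed to 134 ± 18.9 CPM in P12 pull-downs and 76.0 ± 2.06 CPM in P12 supernatants (SD, n = 3 each), with 1 of 5 called higher and Rax and Ccdc153 each at 0 in 1 pull-down. Vim alone carried that rise, at a mean of 108 CPM in P12 pull-downs and 45.6 CPM in P12 supernatants, whereas Foxj1 averaged 12.4 CPM in P12 pull-downs and 14.2 CPM in P12 supernatants, and the median log2 fold change of the list was -0.10. Of 8 astrocyte markers 2 were higher (Gfap, Aldoc) and none lower. They summed to 1246 ± 111 CPM in P12 pull-downs and 1118 ± 29.5 CPM in P12 supernatants, with a median log2 fold change of -0.20. Of 5 oligodendrocyte precursor markers 1 was higher (Cspg4) and none lower. Pdgfra, Olig1 and Olig2 stood at -0.32, -0.47 and -0.39 on the log2 scale, and Gpr17 at 0.17. The precursor list summed to 289 ± 25.0 CPM in P12 pull-downs and 346 ± 13.0 CPM in P12 supernatants (SD, n = 3 each). The part of these cells in the Slit and Robo2 values was not tested.

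The other receptors at P12 did not pass the test. Nrp1, which binds class 3 semaphorins and VEGF, had 126, 41.9 and 53.8 CPM in P12 pull-downs, against 49.3, 46.6 and 46.2 CPM in P12 supernatants, and pull-down 1 alone stood far out (0.82 ± 0.29, SE; adjusted p = 0.111). Nrp2, its relative, stood at 0.47 ± 0.19 (SE; adjusted p = 0.189). All 9 plexins were tested, and their log2 fold changes ran from -0.18 for Plxna2 to 0.64 for Plxna3. Unc5a, a repulsive netrin receptor, was higher in each of 3 pairs without overlap, at 48.1, 40.7 and 55.8 CPM in P12 pull-downs and 37.8, 35.0 and 36.8 CPM in P12 supernatants, and missed the threshold (0.74 ± 0.29, SE; adjusted p = 0.160). The other netrin receptors Dcc, Unc5b, Unc5c and Unc5d gave -0.07, -1.56, 0.08 and -0.43 on the log2 scale. The 14 Eph receptors ranged from -0.83 (Ephb3) to 1.42 (Ephb4), genes with at most 12.5 and 22.5 CPM in a library and SEs of 1.51 and 1.37.

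Ligands other than Slits did not pass at P12 either. Among secreted semaphorins, Sema3f had 24.1, 15.8 and 13.6 CPM in P12 pull-downs, against 8.41, 7.05 and 8.14 CPM in P12 supernatants, without overlap (1.49 ± 0.60, SE; adjusted p = 0.176), and DESeq2 called it higher. Sema3g, a semaphorin best known from vessels, had 12.2, 3.39 and 2.88 CPM in P12 pull-downs, against 0.462, 0.963 and 1.28 CPM in P12 supernatants, also without overlap but with a wide error (2.81 ± 1.50, SE; adjusted p = 0.347). The 9 markers of endothelial, pericyte and leptomeningeal cells, where Sema3g is at home, summed to 39.0, 69.9 and 38.4 CPM in P12 pull-downs and to 39.0, 38.0 and 39.8 CPM in P12 supernatants. Of them 1 was higher (Col1a1), Flt1 and Lum were each at 0 in 2 P12 pull-downs, and their part in these values was not tested. Sema3d was higher in 3 of 3 pairs (1.18 ± 0.66, SE; adjusted p = 0.372), and so was Sema4c (0.78 ± 0.64, SE; adjusted p = 0.588). The netrins Ntn1, Ntn3 and Ntn4 gave 0.51, -0.26 and -1.75 on the log2 scale with SEs of 0.62 to 2.31. Ntng1 and Ntng2, lipid-anchored relatives of netrins found at synapses, were lower in 3 of 3 pairs at -0.41 ± 0.26 and -1.09 ± 1.03 (SE), neither past the threshold. The 6 tested ephrins lay between -0.45 (Efna2) and 0.49 (Efna3).

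The same comparison at P60, where Pomc was strongly enriched, called 4 of 64 tested members. Slit1, Sema4f and Plxnc1 were higher in the pull-down, or 4.69% of tested members beside 7.11% of all 14444 tested genes, and Ephb1 was lower, or 1.56% beside 4.53%. The share of members called was thus below that of all genes in both directions. The members' median log2 fold change was 0.04 and that of all tested genes -0.10.

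Slit1 had 49.5, 90.6 and 85.9 CPM in P60 pull-downs, against 58.9, 45.5 and 52.7 CPM in P60 supernatants. Pull-down 1 lay below the supernatant of its own pair while the other 2 pull-downs were well above theirs, and the log2 fold change was 0.71 ± 0.21 (SE; adjusted p = 0.0181). Sema4f (chr6:82911885-82939769), a transmembrane semaphorin of neurons, had 50.3, 44.6 and 34.0 CPM in P60 pull-downs, against 30.6, 31.5 and 31.4 CPM in P60 supernatants. Its groups did not overlap, and the supernatants were tight (0.67 ± 0.22, SE; adjusted p = 0.0425), but the call was lost when any replicate pair was left out. Plxnc1 (chr10:94790866-94944835), the receptor of Sema7a, had 76.1, 69.3 and 60.3 CPM in P60 pull-downs, against 50.8, 51.1 and 62.6 CPM in P60 supernatants, and the highest supernatant lay above the lowest pull-down. Its call is the weakest of the 4 (0.55 ± 0.19, SE; adjusted p = 0.0492) and was lost in 7 of 10 alternative settings. Ephb1 (chr9:101922128-102354693), a receptor for B ephrins, had 41.3, 25.8 and 32.6 CPM in P60 pull-downs, against 65.2, 58.9 and 62.1 CPM in P60 supernatants. All pull-downs were below all supernatants, and the log2 fold change was -0.70 ± 0.20 (SE; adjusted p = 0.0170). At P12 Ephb1 was likewise lower in 3 of 3 pairs, with 27.9, 52.3 and 24.5 CPM in P12 pull-downs, against 56.2, 65.1 and 63.2 CPM in P12 supernatants, and did not pass (-0.55 ± 0.30, SE; adjusted p = 0.356).

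Without replicate pair 2 or without pair 3 no member was called at P60, and without pair 1 Sema4f and Plxnc1 lost their calls while Slit1 stood at 1.12 on the log2 scale. With library size alone, no member was higher and 2 were lower, Ephb1 at -0.93 and Epha5 at -0.71, with the median of all genes moved to -0.32. Myelin markers moved with the fraction at P60: the 8 of the list summed to 1176 ± 39.2 CPM in P60 pull-downs and 2227 ± 21.4 CPM in P60 supernatants (SD, n = 3 each), 6 of 8 were lower, and none was at 0. Astrocyte markers summed to 933 ± 102 CPM in P60 pull-downs and 1184 ± 51.6 CPM in P60 supernatants (4 of 8 lower), and oligodendrocyte precursor markers to 114 ± 10.5 CPM in P60 pull-downs and 179 ± 7.59 CPM in P60 supernatants (1 of 5 lower, Olig1). Of 6 neuron markers, Snap25 and Syt1 were lower and Tubb3 was higher. The part of these cells in the Ephb1 value was not tested.

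Of the members that did not pass at P60, Efnb1, a transmembrane ephrin, had 14.1, 15.3 and 19.5 CPM in P60 pull-downs, against 12.1, 8.79 and 12.3 CPM in P60 supernatants, and no overlap (0.79 ± 0.35, SE; adjusted p = 0.162). Plxnb2, a receptor for class 4 semaphorins, and Epha5, a receptor for A ephrins, gave 0.57 ± 0.22 (SE; adjusted p = 0.0910) and -0.49 ± 0.19 (SE; adjusted p = 0.0886). Slit2, higher at P12, had 30.8, 42.5 and 58.1 CPM in P60 pull-downs, against 47.0, 40.5 and 47.8 CPM in P60 supernatants, a difference of 0.14 ± 0.22 (SE; adjusted p = 0.761) with overlapping groups. Robo2 had 34.3, 50.1 and 51.2 CPM in P60 pull-downs, against 63.6, 60.6 and 68.8 CPM in P60 supernatants, and here every pull-down was below every supernatant (-0.30 ± 0.20, SE; adjusted p = 0.392). The neuropilins were near equal in both fractions, at 0.08 ± 0.25 for Nrp1 and -0.03 ± 0.18 for Nrp2 (SE). Netrin receptors ran from -0.22 (Dcc) to 0.35 (Unc5d), and netrins from -0.37 (Ntn1) to 0.30 (Ntn3). Semaphorins other than Sema4f lay between -0.47 (Sema4b) and 0.62 (Sema3d).

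**Figure D3:**
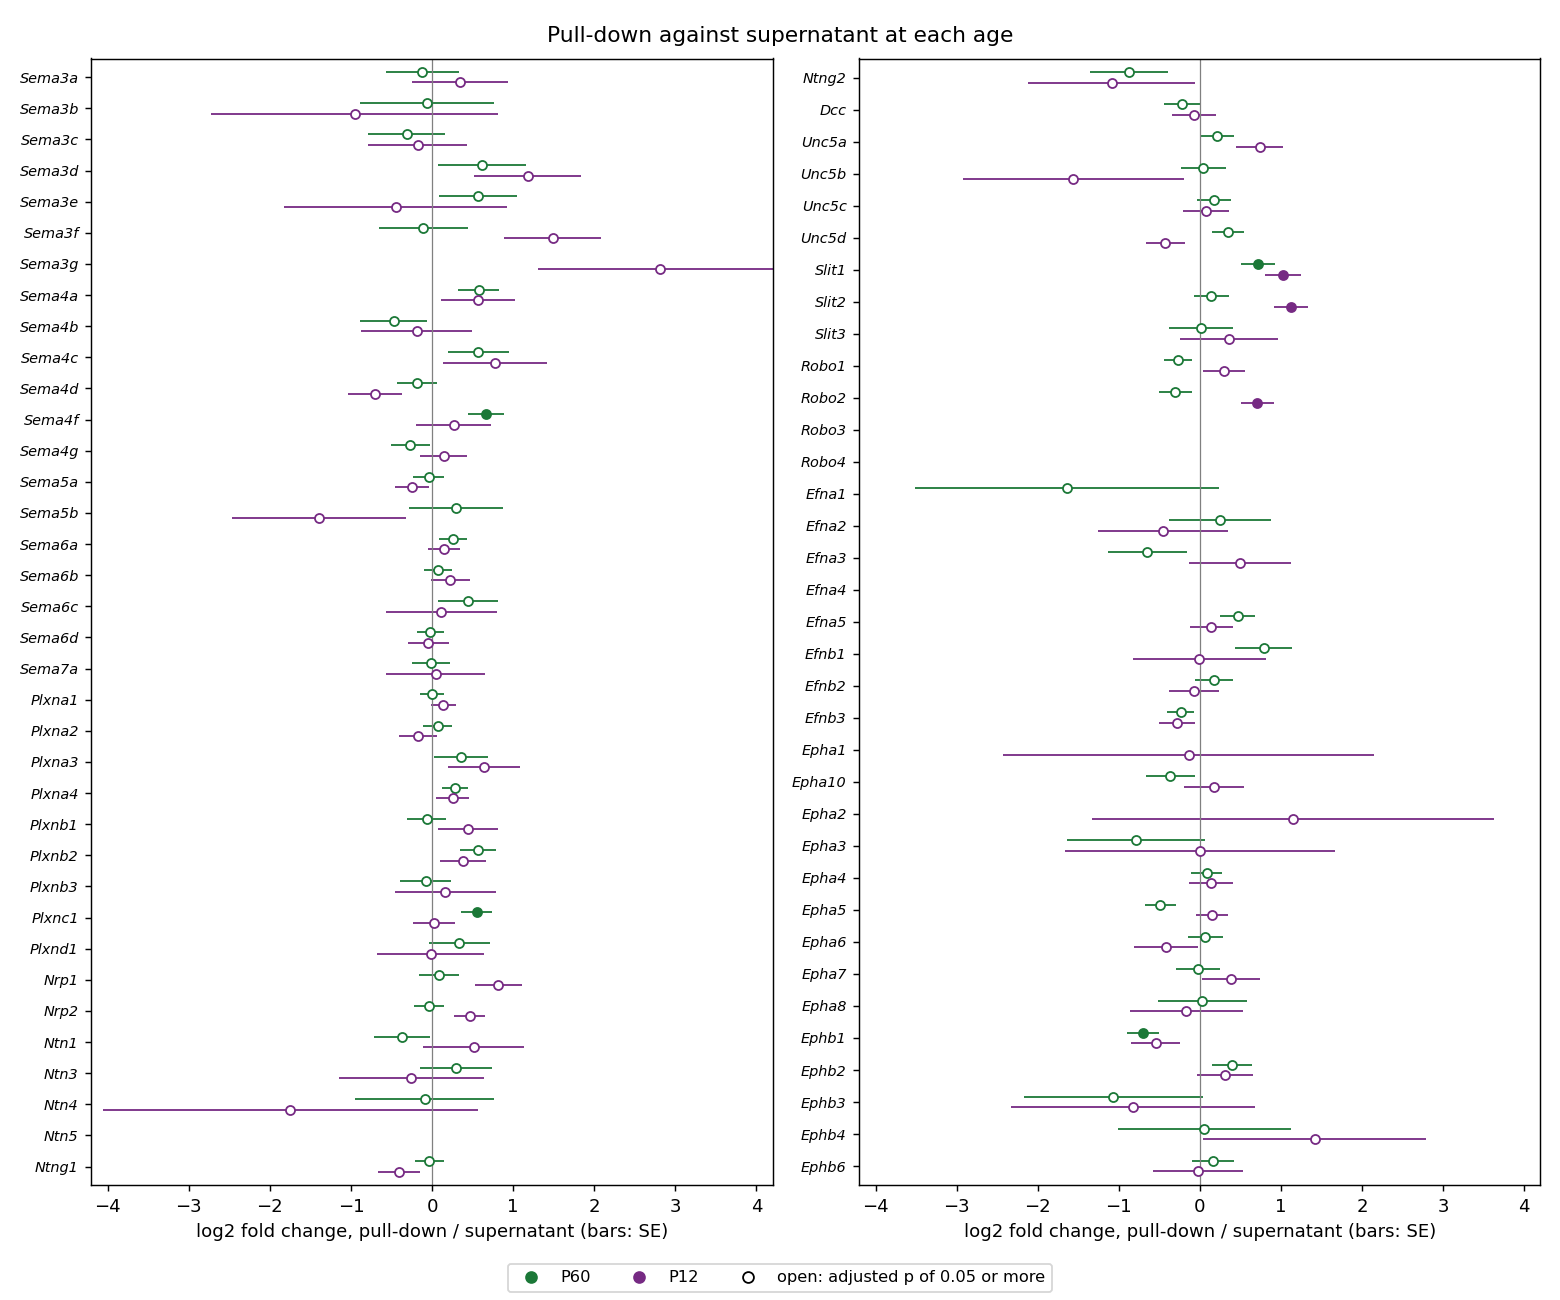
Log2 fold change of pull-down over supernatant (x axis) for each tested member (y axis), P60 in green above P12 in purple, with bars of 1 SE. Filled points passed the adjusted p threshold: Slit1, Slit2 and Robo2 at P12, and Slit1, Sema4f, Plxnc1 and Ephb1 at P60. The bar of Sema3g at P12 runs past the axis, and a member with no point was not tested.

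Whether enrichment itself differed between the ages was tested as the P60 difference less the P12 difference over all 12 libraries. No member of 67 tested passed in edgeR, beside 0.438% of 15311 genes higher and 0.686% lower, and 5 members had an unadjusted p below 0.05 (1 higher, 4 lower). DESeq2 called 2 members, both lower, beside 223 genes higher and 226 lower of 14123. The member nearest to the threshold was Robo2, with a difference of -1.04 ± 0.29 (SE; adjusted p = 0.0923). It passed in DESeq2 (adjusted p = 0.0352) and in edgeR with no filter on low counts (adjusted p = 0.0460). For Slit2 the difference was -1.02 ± 0.32 (SE; adjusted p = 0.153), an interval of 2 SE from -1.66 to -0.37 that lies below 0 but does not survive adjustment over all genes. Slit1 differed by -0.35 ± 0.33 (SE; adjusted p = 0.787), with 2 SE spanning -1.02 to 0.32. The calls of Slit2 and Robo2 at P12 and of Sema4f, Plxnc1 and Ephb1 at P60 are therefore not shown to belong to 1 age. Unc5d and Epha5 also had an unadjusted p below 0.05, at 0.74 ± 0.32 and -0.67 ± 0.28 (SE), as did Sema3g, which DESeq2 called and whose fitted value rests on almost no reads at P60.

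Pull-downs were then compared between ages. Of 65 members tested, 6 were lower at P60 than at P12, namely Nrp1, Slit2, Robo2, Epha5, Nrp2 and Plxna1, and none was higher. These are 9.23% of tested members, beside 3.11% of all 13570 genes lower and 1.89% higher. Receptors make up 5 of the 6, with 31 receptors and 34 ligands tested, and a difference between these roles was not tested. In each of the 6, every P60 pull-down lay below every P12 pull-down, though overlap was not counted over all genes.

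Nrp1 (chr8:128358604-128503363), the receptor of class 3 semaphorins and VEGF, had 32.7, 25.3 and 22.8 CPM in P60 pull-downs, against 126, 41.9 and 53.8 CPM in P12 pull-downs, a log2 fold change of -1.61 ± 0.37 (SE; adjusted p = 0.0184). P12 pull-down 1 is the highest of all by far, and leaving it out ended the call. Nrp2 (chr1:62703285-62818695), the second neuropilin, had 64.4, 59.0 and 50.3 CPM in P60 pull-downs, against 95.9, 122 and 94.0 CPM in P12 pull-downs, a log2 fold change of -1.02 ± 0.24 (SE; adjusted p = 0.0219). Plxna1 (chr6:89316314-89362620), a plexin that pairs with neuropilins, had 127, 99.4 and 126 CPM in P60 pull-downs, against 159, 219 and 203 CPM in P12 pull-downs, a log2 fold change of -0.90 ± 0.21 (SE; adjusted p = 0.0213). Of its exonic bases 10.7% overlap the gene Gm26811, and without the counting settings it is not known how reads there were assigned. Robo2 had 34.3, 50.1 and 51.2 CPM in P60 pull-downs, against 96.4, 91.6 and 82.2 CPM in P12 pull-downs, a log2 fold change of -1.14 ± 0.28 (SE; adjusted p = 0.0238). Its ligand Slit2 had 30.8, 42.5 and 58.1 CPM in P60 pull-downs, against 125, 128 and 75.7 CPM in P12 pull-downs, a log2 fold change of -1.47 ± 0.31 (SE; adjusted p = 0.0103). Epha5 (chr5:84054761-84417382), an A-type Eph receptor of neurons, had 55.8, 58.7 and 36.5 CPM in P60 pull-downs, against 111, 88.2 and 79.5 CPM in P12 pull-downs, a log2 fold change of -1.05 ± 0.27 (SE; adjusted p = 0.0327).

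These calls are fragile with 3 libraries a group. Leaving out P60 pull-down 1 or 2 left none of the 6, leaving out P60 pull-down 3 left Slit2 alone, and leaving out P12 pull-down 2 left Nrp1 alone, with log2 fold changes of all 6 between -1.87 and -0.72 in every setting run. A correction for length left Nrp1 and Slit2, and library size alone left Nrp1, Robo2 and Slit2. Pull-downs of the 2 ages also differed in other cell types. Oligodendrocyte precursor markers summed to 114 ± 10.5 CPM in P60 pull-downs and 289 ± 25.0 CPM in P12 pull-downs (2 of 5 lower, none at 0), astrocyte markers to 933 ± 102 CPM at P60 and 1246 ± 111 CPM at P12 (2 of 8 lower, none at 0), and tanycyte and ependymal markers to 80.9 ± 6.50 CPM at P60 and 134 ± 18.9 CPM at P12 (1 of 5 lower, Vim, with Rax at 0 in 1 library of each age). The POMC list rose to 4649 ± 1071 CPM at P60, against 148 ± 55.3 CPM at P12, with 4 of 6 higher. The part of these shifts in the 6 values was not tested, and fewer cells of a type cannot be told apart from less RNA per cell in bulk samples.

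Members that missed the threshold between pull-downs include Sema3f, with 7.76, 11.1 and 2.22 CPM in P60 pull-downs, against 24.1, 15.8 and 13.6 CPM in P12 pull-downs and no overlap (-1.49 ± 0.69, SE; adjusted p = 0.275). Sema4g, a transmembrane semaphorin, gave -0.82 ± 0.37 (SE; adjusted p = 0.252), also without overlap. Sema3g had 0, 0 and 3 reads in P60 pull-downs, against 77, 61 and 57 reads in P12 pull-downs. Pooled, that is 3 of 43354010 reads at P60 and 195 of 44127365 at P12, or 63.9-fold lower at P60 (exact 95% interval for counting error only, 21.5 to 312). The edgeR test, which includes the spread between libraries, gave an adjusted p of 0.0777, and DESeq2 and edgeR with no filter both called it. Its supernatants were level with age, at 1.29, 0.491 and 1.18 CPM at P60 and 0.462, 0.963 and 1.28 CPM at P12. Upward shifts that did not pass were seen for Unc5b at 1.87 ± 0.96, Sema7a at 0.97 ± 0.51 and Ntng1 at 0.60 ± 0.30 (SE), each with all P60 pull-downs above all P12 pull-downs.

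**Figure D4:**
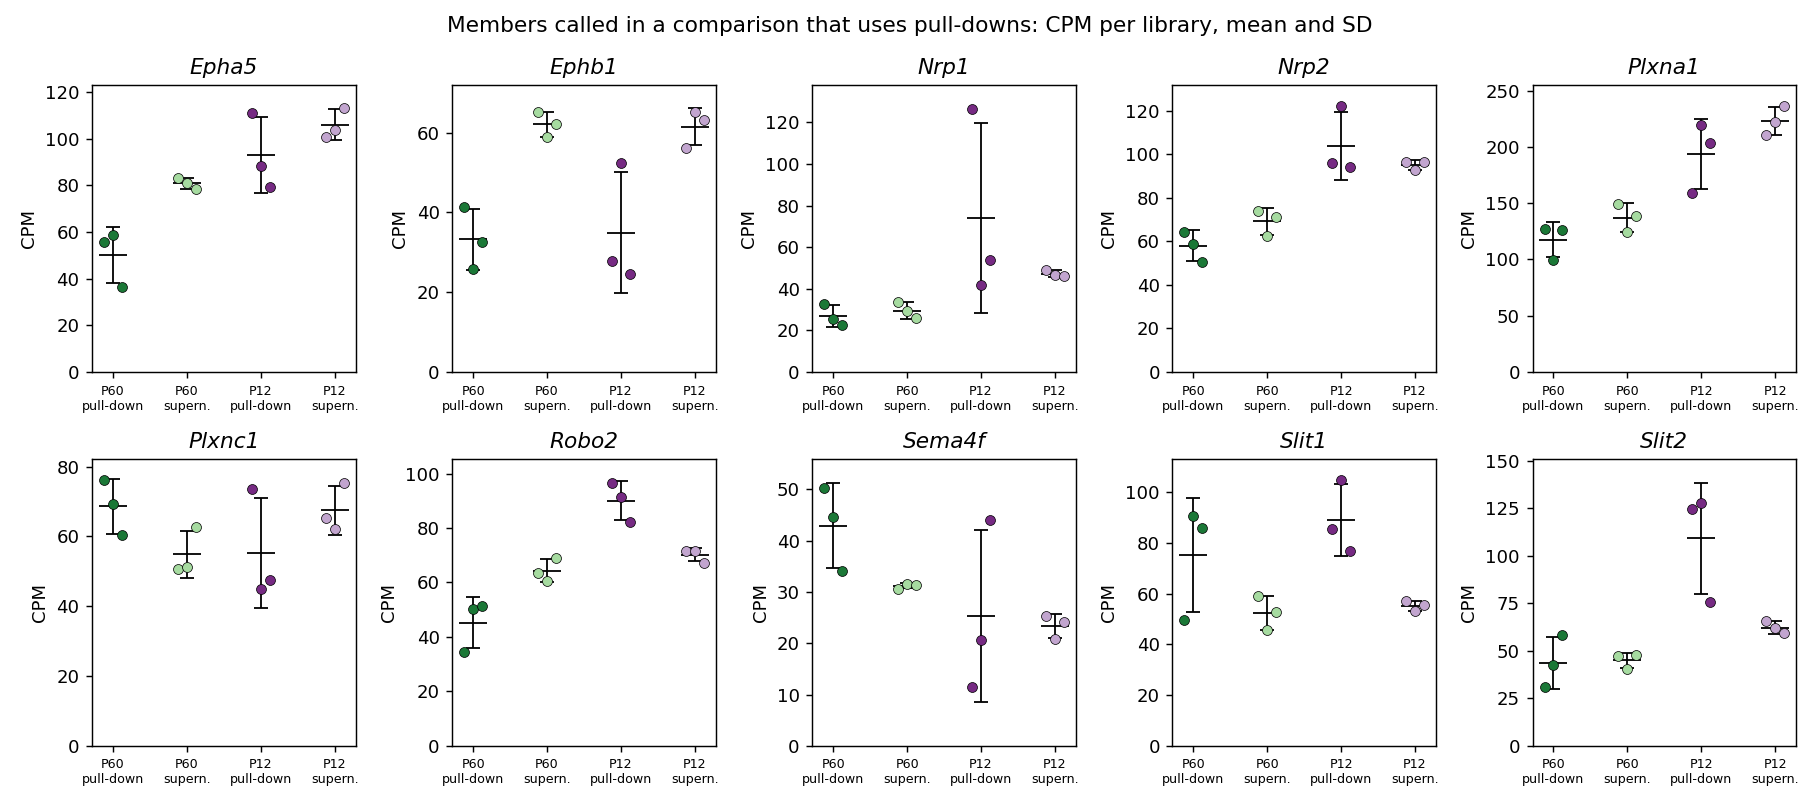
CPM of the 10 members called in a comparison that uses pull-downs (y axis, from 0), 1 point per library, by group on the x axis, with the mean and SD of 3 libraries in black. For Slit2 the P12 pull-downs sit at 75.7 to 128 CPM, above every library of the other groups, and for Ephb1 the pull-downs of each age lie below the supernatants of that age.

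The supernatants, RNA of the whole arcuate piece, gave the tightest replicates and the most calls. Of 68 members tested, 28 were lower at P60 than at P12 (41.2%, beside 20.8% of all 15251 genes) and 8 were higher (11.8%, beside 20.9%). In 34 of the 36 called members the ages did not overlap, the exceptions being Plxna4 and Plxnc1. Overlap was not counted over all genes, so this describes the called values and no trait of the members. The members' median log2 fold change was -0.18 and that of all tested genes 0.00. Myelin markers summed to 2227 ± 21.4 CPM at P60 and 1194 ± 62.1 CPM at P12 (8 of 8 higher, none at 0), and oligodendrocyte precursor markers to 179 ± 7.59 CPM at P60 and 346 ± 13.0 CPM at P12 (5 of 5 lower, none at 0). The sum of 6 neuron markers was 3388 ± 114 CPM at P60 and 3365 ± 217 CPM at P12 (SD, n = 3 each), but it holds opposite changes, since Snap25 was higher (0.87 on the log2 scale) and Stmn2, Tubb3 and Elavl4 were lower (-1.13, -0.81 and -0.26). Astrocyte markers summed to 1184 ± 51.6 CPM at P60 and 1118 ± 29.5 CPM at P12, with 2 of 8 higher (Aldoc, Aldh1l1) and 3 lower (Gja1, Slc1a3, Slc1a2). The part of these cell types in the values that follow was not tested. When the spread was estimated over all 12 libraries, pull-downs included, only Plxna1 still passed. Calls were also lost on leaving out 1 library for Sema3d (4 of the 6 libraries), Sema4d, Ephb3 and Ntn4 (3 each), Ephb2 (2), and Epha7, Plxna4 and Plxnc1 (1 each).

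The 8 higher members led with Unc5b and Sema7a. Unc5b (chr10:60762593-60831581), a repulsive netrin receptor also found in vessels, had 27.9, 23.8 and 23.7 CPM in P60 supernatants, against 9.12, 9.23 and 9.79 CPM in P12 supernatants, a log2 fold change of 1.37 ± 0.12 (SE; adjusted p = 2.05e-10). Sema7a (chr9:57940112-57962865), a lipid-anchored semaphorin that binds Plxnc1, had 36.8, 31.9 and 33.1 CPM in P60 supernatants, against 14.5, 16.0 and 13.3 CPM in P12 supernatants, a log2 fold change of 1.17 ± 0.11 (SE; adjusted p = 4.49e-10). In both, the lowest P60 supernatant was well above the highest P12 supernatant. Ntn4, a netrin related to laminins, had 3.81, 4.55 and 4.09 CPM in P60 supernatants, against 2.94, 2.73 and 1.82 CPM in P12 supernatants, a log2 fold change of 0.71 ± 0.27 (SE; adjusted p = 0.0333). Ephb6, an Eph receptor without kinase activity, had 32.2, 26.0 and 26.5 CPM in P60 supernatants, against 17.7, 17.4 and 15.7 CPM in P12 supernatants, a log2 fold change of 0.69 ± 0.11 (SE; adjusted p = 7.96e-06). Plxnb3, a receptor of Sema5a, had 22.5, 20.0 and 16.2 CPM in P60 supernatants, against 12.9, 14.1 and 11.9 CPM in P12 supernatants, a log2 fold change of 0.55 ± 0.13 (SE; adjusted p = 0.00103). Among transmembrane semaphorins, Sema6d had 106, 91.0 and 94.0 CPM in P60 supernatants, against 69.9, 69.3 and 77.1 CPM in P12 supernatants, a log2 fold change of 0.38 ± 0.08 (SE; adjusted p = 2.40e-04), and Sema4a had 29.9, 23.4 and 26.3 CPM in P60 supernatants, against 20.1, 19.1 and 20.0 CPM in P12 supernatants, a log2 fold change of 0.38 ± 0.11 (SE; adjusted p = 0.00627). Sema4f rose by a similar amount (0.37 ± 0.10, SE; adjusted p = 0.00426).

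Semaphorin receptors were mostly lower in P60 supernatants. Plxna1 had 149, 124 and 138 CPM in P60 supernatants, against 211, 222 and 236 CPM in P12 supernatants, a log2 fold change of -0.75 ± 0.08 (SE; adjusted p = 2.60e-09). Nrp1 had 33.7, 29.3 and 25.8 CPM in P60 supernatants, against 49.3, 46.6 and 46.2 CPM in P12 supernatants, a log2 fold change of -0.72 ± 0.09 (SE; adjusted p = 2.62e-07), and Nrp2 had 74.1, 62.3 and 71.0 CPM in P60 supernatants, against 96.4, 92.6 and 96.4 CPM in P12 supernatants, a log2 fold change of -0.51 ± 0.08 (SE; adjusted p = 4.05e-06). The other A plexins, which share the neuropilins as partners, fell too: Plxna3 had 18.1, 13.2 and 14.8 CPM in P60 supernatants, against 19.8, 18.9 and 22.5 CPM in P12 supernatants, a log2 fold change of -0.46 ± 0.13 (SE; adjusted p = 0.00434), and Plxna2 had 85.8, 73.6 and 79.5 CPM in P60 supernatants, against 97.1, 106 and 105 CPM in P12 supernatants, a log2 fold change of -0.41 ± 0.08 (SE; adjusted p = 7.63e-05). Plxna4 (-0.27 ± 0.08, SE; adjusted p = 0.00811) and Plxnc1 (-0.34 ± 0.10, SE; adjusted p = 0.00445) fell by less. Plxnb1, a receptor of Sema4d, Plxnb2, and Plxnd1, the receptor of Sema3e, did not pass, at 0.22, -0.17 and -0.18 on the log2 scale.

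Of the semaphorins, 9 fell. Among the secreted class 3, which act on neuropilins, Sema3c had 10.6, 11.3 and 8.49 CPM in P60 supernatants, against 14.5, 15.8 and 14.8 CPM in P12 supernatants, a log2 fold change of -0.61 ± 0.14 (SE; adjusted p = 8.71e-04). Sema3a, the best known axon repellent of the class, had 10.0, 9.63 and 11.6 CPM in P60 supernatants, against 16.5, 14.2 and 13.8 CPM in P12 supernatants, a log2 fold change of -0.55 ± 0.14 (SE; adjusted p = 0.00199), and Sema3d had 6.16, 5.22 and 6.19 CPM in P60 supernatants, against 8.03, 7.89 and 7.89 CPM in P12 supernatants, a log2 fold change of -0.49 ± 0.18 (SE; adjusted p = 0.0286). Sema3b, Sema3e, Sema3f and Sema3g did not pass, with log2 fold changes from -0.10 to 0.10. The class 5 semaphorins, membrane proteins with thrombospondin repeats, both fell: Sema5b had 6.22, 5.40 and 6.75 CPM in P60 supernatants, against 11.4, 8.92 and 11.3 CPM in P12 supernatants, a log2 fold change of -0.83 ± 0.17 (SE; adjusted p = 2.32e-04), and Sema5a had 71.3, 64.9 and 80.5 CPM in P60 supernatants, against 121, 108 and 105 CPM in P12 supernatants, a log2 fold change of -0.67 ± 0.08 (SE; adjusted p = 8.62e-08). In class 4, all transmembrane, Sema4b had 12.7, 13.5 and 13.7 CPM in P60 supernatants, against 18.2, 19.5 and 18.3 CPM in P12 supernatants, a log2 fold change of -0.53 ± 0.12 (SE; adjusted p = 8.57e-04), and Sema4g had 41.8, 37.2 and 39.8 CPM in P60 supernatants, against 47.6, 49.6 and 57.0 CPM in P12 supernatants, a log2 fold change of -0.43 ± 0.09 (SE; adjusted p = 4.28e-04). Sema4d, a ligand of Plxnb1, moved least (-0.25 ± 0.09, SE; adjusted p = 0.0181), and Sema4c did not pass. In class 6, Sema6a, a ligand of A plexins, had 81.0, 64.4 and 78.3 CPM in P60 supernatants, against 104, 99.1 and 94.0 CPM in P12 supernatants, a log2 fold change of -0.45 ± 0.08 (SE; adjusted p = 3.44e-05), while Sema6b and Sema6c did not pass.

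Netrin and Slit genes were less uniform. Unc5d, a repulsive netrin receptor, had 57.4, 50.4 and 55.3 CPM in P60 supernatants, against 85.0, 82.0 and 86.6 CPM in P12 supernatants, a log2 fold change of -0.68 ± 0.08 (SE; adjusted p = 2.92e-08), opposite to Unc5b. Dcc, the attractive netrin receptor, had 48.3, 44.6 and 42.7 CPM in P60 supernatants, against 63.3, 56.5 and 58.3 CPM in P12 supernatants, a log2 fold change of -0.44 ± 0.08 (SE; adjusted p = 7.80e-05). Unc5a and Unc5c did not pass, nor did Ntn1, Ntn3, Ntng1 and Ntng2. Slit2 had 47.0, 40.5 and 47.8 CPM in P60 supernatants, against 65.7, 61.8 and 59.2 CPM in P12 supernatants, a log2 fold change of -0.51 ± 0.09 (SE; adjusted p = 1.48e-05), while Slit1 and Slit3 stood at -0.12 ± 0.09 and -0.17 ± 0.12 (SE). Robo1 was level at 81.2 ± 5.36 CPM in P60 supernatants and 76.0 ± 3.48 CPM in P12 supernatants (SD, n = 3 each). Robo2 had 63.6, 60.6 and 68.8 CPM in P60 supernatants, against 71.7, 71.6 and 67.3 CPM in P12 supernatants (-0.17 ± 0.08, SE; adjusted p = 0.0950).

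Among ephrins and Eph receptors 9 fell and Ephb6 alone rose. Efna2, a lipid-anchored ephrin, had 7.21, 4.50 and 5.51 CPM in P60 supernatants, against 13.9, 9.42 and 9.56 CPM in P12 supernatants, a log2 fold change of -0.97 ± 0.19 (SE; adjusted p = 8.66e-05). Efna5, the A ephrin with the highest level per kilobase here, had 37.5, 31.9 and 40.2 CPM in P60 supernatants, against 55.6, 47.7 and 52.2 CPM in P12 supernatants, a log2 fold change of -0.55 ± 0.09 (SE; adjusted p = 2.05e-05). Efnb2, a transmembrane ephrin also of arteries, had 35.5, 30.1 and 35.7 CPM in P60 supernatants, against 48.6, 45.7 and 42.0 CPM in P12 supernatants, a log2 fold change of -0.47 ± 0.09 (SE; adjusted p = 1.37e-04), whereas Efnb1, Efnb3, Efna1 and Efna3 did not pass. On the receptor side, Epha8 had 9.50, 7.58 and 5.45 CPM in P60 supernatants, against 9.92, 11.5 and 14.7 CPM in P12 supernatants, a log2 fold change of -0.73 ± 0.18 (SE; adjusted p = 0.00150). Ephb3 had 3.87, 3.52 and 3.78 CPM in P60 supernatants, against 4.75, 5.97 and 6.01 CPM in P12 supernatants, a log2 fold change of -0.64 ± 0.22 (SE; adjusted p = 0.0192). Epha10, which lacks kinase activity, had 26.9, 26.7 and 27.9 CPM in P60 supernatants, against 43.6, 33.2 and 41.3 CPM in P12 supernatants, a log2 fold change of -0.58 ± 0.10 (SE; adjusted p = 3.12e-05), and Epha5 had 83.3, 80.9 and 78.5 CPM in P60 supernatants, against 101, 104 and 113 CPM in P12 supernatants, a log2 fold change of -0.43 ± 0.08 (SE; adjusted p = 3.09e-05). Epha7 (-0.33 ± 0.10, SE; adjusted p = 0.00886) and Ephb2 (-0.32 ± 0.11, SE; adjusted p = 0.0162) fell by less. Epha1, Epha2, Epha3, Epha4, Epha6, Ephb1 and Ephb4 did not pass. Of these, Epha4, a receptor for both ephrin classes, had 62.8 ± 5.31 CPM in P60 supernatants and 60.3 ± 0.548 CPM in P12 supernatants (SD, n = 3 each).

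**Figure D5:**
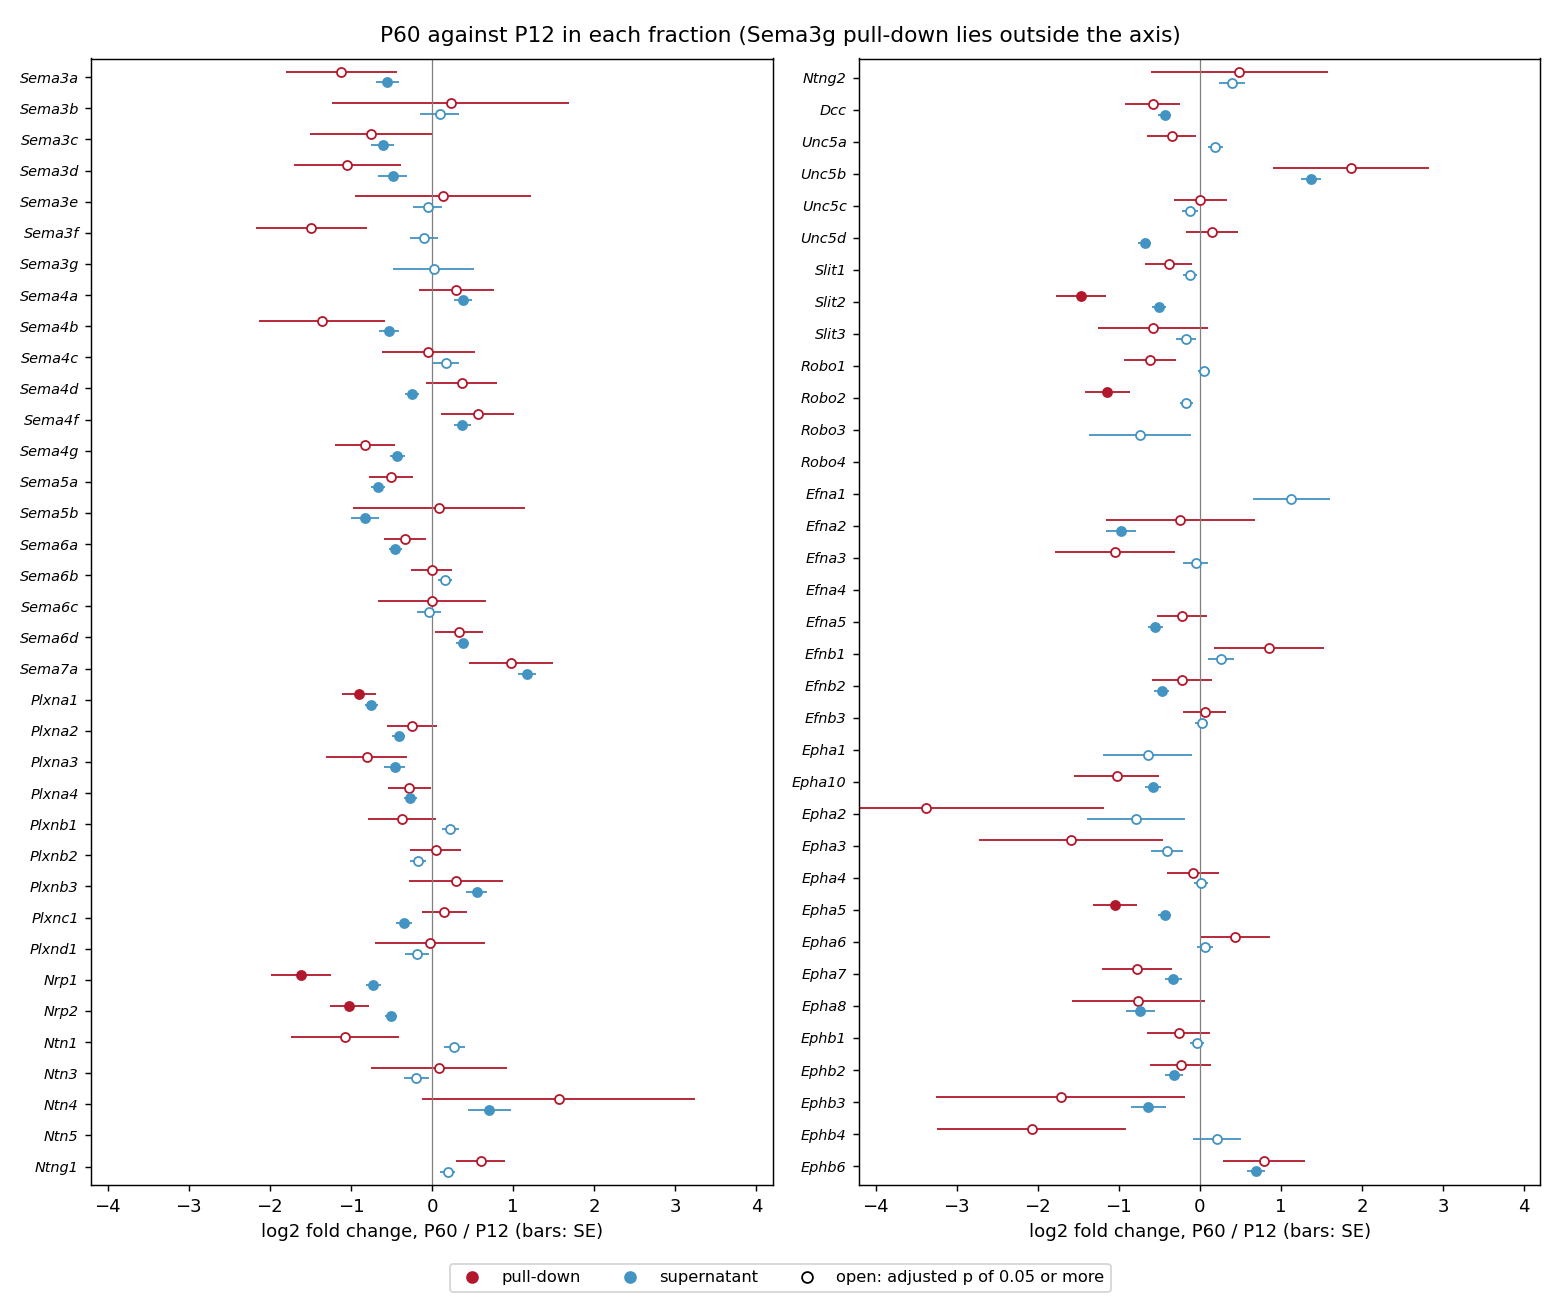
Log2 fold change of P60 over P12 (x axis) for each tested member (y axis), pull-down in red above supernatant in blue, with bars of 1 SE. Filled points passed the adjusted p threshold, 6 in pull-downs and 36 in supernatants. Sema3g in pull-downs (-6.17) lies outside the axis, the bar of Epha2 in pull-downs runs past it, and a member with no point was not tested.

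Both fractions come from the same lysates, so their age changes are set side by side and not counted as separate support. Slit2 changed by -1.47 on the log2 scale in pull-downs and -0.51 in supernatants. Nrp1 changed by -1.61 on the log2 scale in pull-downs and -0.72 in supernatants. Nrp2 changed by -1.02 on the log2 scale in pull-downs and -0.51 in supernatants. Epha5 changed by -1.05 on the log2 scale in pull-downs and -0.43 in supernatants. Plxna1 changed by -0.90 on the log2 scale in pull-downs and -0.75 in supernatants. These 5 were called in both fractions. Robo2 was called in pull-downs at -1.14 and not in supernatants at -0.17, and the test of that difference is the one above, in which Robo2 missed the threshold (adjusted p = 0.0923). The remaining supernatant calls had no pull-down call, and with a median SE of 0.45 in pull-downs, against 0.11 in supernatants, changes as small as those of most members could not be shown in pull-downs.

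A few members were at the limit of detection. Ntn5, a netrin-like gene, had 0, 0 and 0 reads in P60 pull-downs, against 6, 0 and 2 in P60 supernatants, and 0, 0 and 0 in P12 pull-downs, against 10, 3 and 6 in P12 supernatants. With 3 reads over the group as the floor that a count of 0 allows, its pooled supernatants stood at 2.08 times the pull-down floor at P60 and 3.06 times at P12. Such ratios leave out the counting error of the few supernatant reads, so they are not lower bounds. Of the exonic bases of Ntn5, 23.4% overlap the gene Sec1, and 14.1% of those of Efna3, 14.0% of Ntng2 and 10.5% of Efna4 overlap other genes. The counting settings are not given, so reads in such bases may have gone to either gene or to neither. Of the lipid-anchored ephrins, Efna4 had 0, 0 and 4 reads in P60 pull-downs, 6, 7 and 2 in P60 supernatants, 0, 0 and 0 in P12 pull-downs and 3, 9 and 8 in P12 supernatants, where the pooled level was 3.23 times the P12 pull-down floor. Efna1 had 14, 11 and 0 reads in P60 pull-downs, 35, 22 and 18 in P60 supernatants, 0, 0 and 0 in P12 pull-downs and 10, 21 and 25 in P12 supernatants, where the pooled level was 9.03 times the P12 pull-down floor. These 3 genes and Robo3 and Robo4 were removed by the filter at P12. Robo4 had 0, 0 and 0 reads in P60 pull-downs, against 5, 9 and 0 in P60 supernatants, a pooled level 3.64 times the floor, and 8, 14 and 20 in P12 supernatants. Robo3, a divergent Robo of axons that cross the midline, had 1, 37 and 0 reads in P60 pull-downs, 4, 11 and 7 in P60 supernatants, 2, 0 and 1 in P12 pull-downs and 6, 13 and 42 in P12 supernatants. At P60 the filter removed Ntn5, Efna4, Robo3, Robo4, Sema3g, Epha1 and Epha2, and between pull-downs Ntn5, Efna1, Efna4, Robo3, Robo4 and Epha1. Epha2 had 18, 0 and 0 reads in P60 pull-downs and 12, 0 and 182 in P12 pull-downs, so that 1 library held nearly all of them.

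Genes whose proteins carry the guidance signal inside the cell had RNA called higher in the pull-down more often than lower at both ages. Of a list of 42 intracellular effectors, all tested, 14 passed as higher and none as lower at P12, or 33.3% beside 6.28% of all genes higher (median log2 fold change 0.12, all genes -0.27). At P60 9 passed as higher and none as lower, or 21.4% beside 7.11% of all genes higher (0.12, all genes -0.10). The list was chosen with earlier results of these data known, so its shares here and below describe it and are no independent support. At P12 pull-downs favoured long genes (rank correlation 0.32 over all genes). With library size alone, 534 genes were higher and 1390 lower at P12. The part of length and scaling in the effector values was not tested. Trio and Kalrn, which act below DCC and Eph receptors among others, led together with the Mical enzymes, which oxidise actin below plexins. At P12 Mical3 stood at 2.45 ± 0.19, Trio at 2.15 ± 0.13, Kalrn at 1.86 ± 0.17 and Arhgef11, a partner of B plexins, at 1.59 ± 0.16 on the log2 scale (SE, edgeR, adjusted p from 8.61e-09 to 2.59e-06). At P60 Kalrn stood at 1.88 ± 0.15, Mical1 at 1.72 ± 0.33, Trio at 1.53 ± 0.15 and Mical3 at 1.48 ± 0.17 (SE). With age, 10 effectors fell in pull-downs (23.8%, beside 3.11% of all genes) and none rose, while in supernatants 18 fell (42.9%, beside 20.8%) and 5 rose (11.9%, beside 20.9%). Leading both were the collapsin response mediators, phosphoproteins below Sema3a that bind tubulin: Dpysl4 changed by -2.11 ± 0.32 in pull-downs and -1.92 ± 0.10 in supernatants, Dpysl3 by -1.98 ± 0.22 in pull-downs and -1.75 ± 0.08 in supernatants, and Dpysl5 by -1.57 ± 0.20 in pull-downs and -1.77 ± 0.07 in supernatants. Ablim3, an actin-binding protein, changed by -1.79 ± 0.25 in pull-downs and -1.47 ± 0.08 in supernatants (SE). No effector passed the test of the difference between ages in enrichment.

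Of 27 co-receptors and other guidance proteins outside the rule, 4 passed as higher in pull-down over supernatant at P12 (14.8%, beside 6.28% of all genes) and 1 as lower (3.70%, beside 1.95%), and at P60 5 of 26 tested passed as higher (19.2%, beside 7.11%) and none as lower. This list too was chosen with earlier results of these data known, and the part of length and scaling in it was not tested. L1cam, an adhesion molecule that pairs with Nrp1, was among the higher at both ages, at 0.81 ± 0.15 at P60 and 0.91 ± 0.16 at P12 on the log2 scale (SE). At P12 Fzd3, a receptor for Wnt cues, was the lower one at -0.75 ± 0.22. Between ages, Chl1, a relative of L1cam, was the only one of 25 tested that fell in pull-downs (-0.80 ± 0.22), or 4.0% beside 3.11% of all genes, and none rose. In supernatants 13 fell (48.1%, beside 20.8%) and 2 rose (7.41%, beside 20.9%). There Chl1 stood at -0.90 ± 0.07, the Nogo receptor Rtn4r at -0.82 ± 0.15, L1cam at -0.60 ± 0.08 and the axonal adhesion molecule Cntn2, also made by oligodendrocytes, at 0.80 ± 0.08 (SE).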

How the data were processed

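Arcuate tissue lysates were split into pull-down and supernatant. Libraries were made with a stranded total RNA kit after depletion of ribosomal RNA, although the labels also name the molecule as polyA RNA. Single-end reads were aligned by the authors with TopHat2 (version 2.0.13) and Bowtie2 (version 2.2.1), with mm10 as the genome, and HTSeq gave the reads per gene. Its strand setting is not given in the sources used here. What was deposited are raw counts of 19878 genes, not normalized by the authors, and 12 of 12 files of single samples held the same values as the table used here.

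Groups and replicate numbers come from the labels. Tests were run with edgeR (version 4.0.16, under R version 4.3.3) on all genes of the table: filterByExpr, TMM, the quasi-likelihood test and Benjamini-Hochberg adjusted p below 0.05. The study's model treats the fractions as paired samples, so the replicate number was a block in the tests within an age and of their difference, over 6 and 12 libraries. Deviations of same-numbered libraries correlated by 0.0151 to 0.0416 at P12 and 0.0106 to 0.0416 at P60, too little to show pairing by themselves. Ages were compared without a block over 6 libraries. SE is the log2 fold change over the root of F, and intervals of 2 SE are approximate. No 2 libraries of a group were duplicates (chi-square per degree of freedom 9.86 to 92.2). Intervals from pooled reads cover counting error only, and floors cover only the counting error of the pull-down reads.

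Members, pathway lists and cell type markers were chosen with earlier results of these data known. Every member is named. Values per library are given for members past the threshold, at most 30 per comparison by size of change, and the 4 largest called changes are named for a pathway list. Exonic lengths and gene positions are from GENCODE M21 (GRCm38), with a length for 98.4% of genes and all 71 members. Scripts were tested on simulated counts. Alternatives were RLE factors, library size alone, DESeq2 1.42.0, no filter, a length correction, the block added or removed, all 12 libraries in 1 fit, and each replicate left out.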

Additional observations from a re-analysis of the deposited data

How the results depend on the processing

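Over 616 pairs of a called member and an alternative setting, the call was kept in 501 and lost in 115, and the direction turned in 0. Most pairs belong to the 36 supernatant calls, each of which lost 0 to 6 of 13 settings. Calls that use pull-downs were less stable: each lost 1 to 5 of 10 settings at P12 and 3 to 7 of 10 at P60. Between pull-downs each lost 3 to 7 of 13. At P12, members higher and lower in the pull-down than in the supernatant numbered 3 and 0, with library size alone 1 and 2, and with the length correction 1 higher. Leaving out a replicate gave 2 higher each time, with Robo2 lost each time and Slit1 lost without replicate 2. At P60 they numbered 3 and 1, against 0 and 2 with library size alone, 2 lower with the length correction, 1 higher with no replicate block, and 0 and 0 with all 12 libraries in 1 fit. Leaving out a replicate gave 0 to 3 higher and 0 to 1 lower. For the difference of enrichment, DESeq2 gave 2 lower and no filter gave 1. Between pull-downs 6 were lower, against 3 with library size alone and 2 with the length correction, while all 12 libraries gave 8 lower and 1 higher, and leaving out a replicate gave 0 to 5. Between supernatants 8 were higher and 28 lower, against 0 and 1 with all 12 libraries, where pull-down spread enters the estimate, and 10 and 28 with a replicate block. The replicate block added to the pull-down comparison changed no count of member calls. The other settings left member counts within 1.5 times the main value. Calls over all genes moved as well. With all 12 libraries, pull-downs went from 256 higher and 422 lower to 1292 and 1469, and supernatants from 3182 and 3168 to 303 and 293. With library size alone, P12 enrichment went from 933 and 289 to 534 and 1390, and P60 enrichment from 1027 and 655 to 614 and 1790. Leaving out P60 pull-down 3 left 86 genes higher and 161 lower between pull-downs.

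The lowest members scatter most: Robo4 had 46 reads in 1 P12 pull-down and 0 in the others, a deeper library among them, so that spread between libraries and not depth alone limits what can be shown of such genes. Pull-downs differ from supernatants in the spread of replicates and in the cell types captured, which cannot be told apart from regulation within POMC neurons.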
